A study of Mus musculus with 6 samples.

Results

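The immediate early transcription factors of the AP-1 and EGR families were examined in 6 microarrays of BV2 cells, 3 without and 3 with PGC-1α overexpression, all treated with LPS. The members are the Fos family genes Fos, Fosb, Fosl1 and Fosl2, the Jun family genes Jun, Junb and Jund, and the EGR genes Egr1, Egr2 and Egr3. They were chosen by name, and every probe on the array whose RefSeq accession belongs to one of these genes was kept. This gave 16 probes for 10 genes, 11 of them for AP-1 and 5 for EGR, among 33767 probes matched to 23462 genes. All 16 probes were bright enough to be tested, together with 24823 probes of 17172 genes in all.

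BV2 is an immortalized mouse microglial line, so the arrays describe 1 cell line and not microglia in tissue. PGC-1α, encoded by Ppargc1a, is a transcriptional coactivator best known for mitochondrial and metabolic genes. LPS, lipopolysaccharide from bacterial membranes, activates these cells through a toll-like receptor. The cell culture methods of the study give 500 ng/ml LPS for 6 h but do not name the arrays, and they describe a lentivirus that carries PGC-1α, or a negative control virus, followed by puromycin selection. Both groups received LPS and no array of cells without LPS was used here, so the values below are levels after LPS and not inductions by it. The replicates are not described as separate cultures, so p-values measure the spread between these arrays.

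Members of the Fos and Jun families pair through a leucine zipper to form AP-1, which binds a short DNA element in the control regions of cytokine, protease and growth genes. Jun proteins can pair with each other, whereas Fos proteins need a Jun partner. The EGR proteins are zinc finger factors that bind a GC-rich element. Many of these genes are transcribed within minutes of a stimulus from factors already present in the cell, chiefly SRF with its partners ELK and MRTF and the CREB and ATF proteins, downstream of the MAP kinases. Their messengers are short-lived, and in macrophages and microglia LPS is one of the stimuli that induce them.

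The RefSeq promoter windows of 4 members are shown because these genes stood on different sides of the comparison described below. Egr2 and Fosb were lower, Fosl2 was higher by its brighter probe and Fos did not pass the test. Each window runs from 250 bases before to 50 bases after an annotated start, 5′ to 3′ on the strand of the gene, in the build GRCm38.p6. The windows are chr10:67537619-67537918 on the plus strand for Egr2, chr7:19309996-19310295 on the minus strand for Fosb, chr5:32136222-32136521 on the plus strand for Fosl2 and chr12:85473640-85473939 on the plus strand for Fos. Capitals mark matches to the CArG box bound by SRF, the EGR site GCGNGGGCG or the TATA box TATAAA.
Egr2: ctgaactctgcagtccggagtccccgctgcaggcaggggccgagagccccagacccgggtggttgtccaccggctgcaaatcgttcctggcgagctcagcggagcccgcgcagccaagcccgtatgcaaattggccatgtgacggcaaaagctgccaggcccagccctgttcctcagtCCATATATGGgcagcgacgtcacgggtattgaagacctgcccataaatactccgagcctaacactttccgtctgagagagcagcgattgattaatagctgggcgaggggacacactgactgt
Fosb: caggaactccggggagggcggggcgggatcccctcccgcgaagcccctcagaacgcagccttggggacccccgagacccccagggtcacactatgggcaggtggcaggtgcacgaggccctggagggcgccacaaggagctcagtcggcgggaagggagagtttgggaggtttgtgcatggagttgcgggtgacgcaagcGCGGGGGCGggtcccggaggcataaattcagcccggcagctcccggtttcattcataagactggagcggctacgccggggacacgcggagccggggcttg
Fosl2: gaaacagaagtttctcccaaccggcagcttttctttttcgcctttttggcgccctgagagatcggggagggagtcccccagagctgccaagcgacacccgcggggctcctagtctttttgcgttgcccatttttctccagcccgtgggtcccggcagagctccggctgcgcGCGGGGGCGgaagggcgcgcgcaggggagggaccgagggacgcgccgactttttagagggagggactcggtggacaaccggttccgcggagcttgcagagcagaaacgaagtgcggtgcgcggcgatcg
Fos: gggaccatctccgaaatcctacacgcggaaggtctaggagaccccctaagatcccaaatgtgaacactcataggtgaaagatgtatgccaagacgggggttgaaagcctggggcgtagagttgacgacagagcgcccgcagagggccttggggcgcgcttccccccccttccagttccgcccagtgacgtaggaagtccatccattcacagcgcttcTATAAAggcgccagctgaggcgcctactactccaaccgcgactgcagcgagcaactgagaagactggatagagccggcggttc

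Positions were counted from 0 at the first transcribed base, and both strands were searched. The table held windows of 7 members, without Fosl1, Egr1 and Egr3. In these windows the CArG box occurred in Egr2 only, in 4 of its 5 windows, and in the window printed above it lay at -72 to -63. The Egr2 windows that start at 67537619, 67537620 and 67537680 overlap and hold the same box. Egr2 also had more windows than any other member, and sequence more than 250 bases upstream was not searched. Among all genes with a window, 1.81% held the CArG box. The EGR site was found in Fosb at -50 to -42 and in Fosl2 at -79 to -71, against 6.27% of all genes. TATAAA stood at -33 to -28 in Fos and at 0 to 5 in Junb, against 15.7% of all genes. The GC box GGGCGG, which overlaps the EGR site by some of its bases in Fosb and Fosl2, was present in 5 of the 7 genes, against 38.2% of all genes. No window of a member held the CRE TGACGTCA or the AP-1 element TGACTCA or its complement TGAGTCA, which occurred in 2.03% and 5.95% of all genes. Of 21 other immediate early genes with a window, from a list described below, 90.5% held the GC box and 38.1% the EGR site. TATAAA was in 28.6% of them, the CRE in 9.52%, and the CArG box and the AP-1 element in 4.76% each. Among the 7 members the GC box was in 71.4%, the EGR site and TATAAA in 28.6% each and the CArG box in 14.3%. A match is a run of letters and not a shown binding site.

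**Figure D1:**
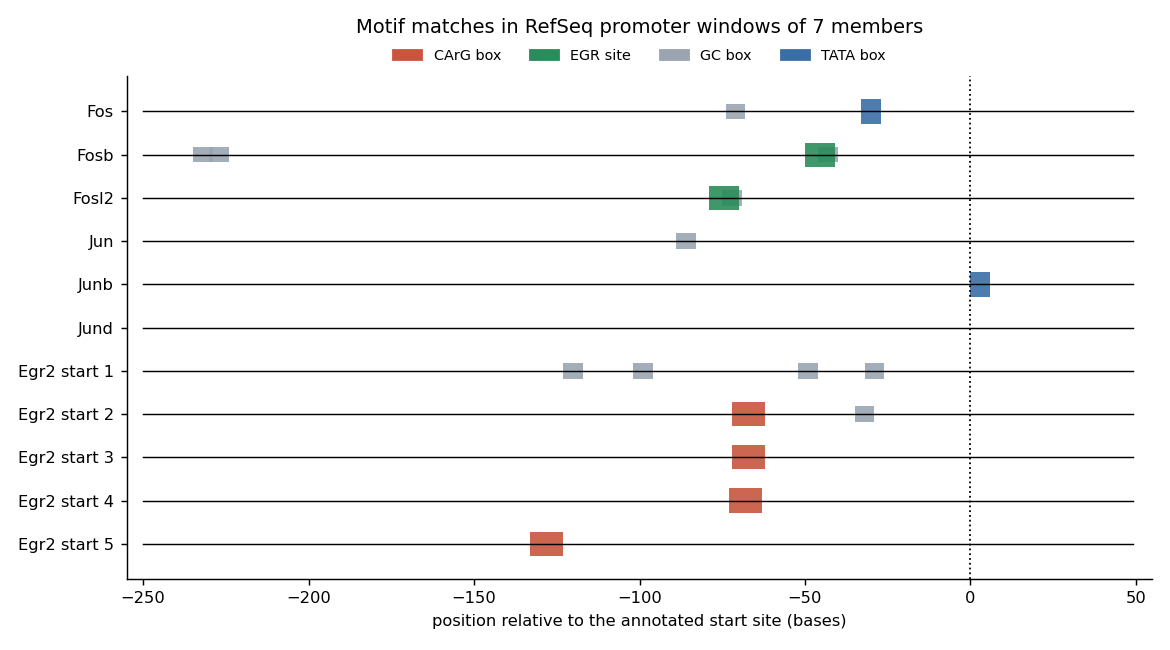
Motif matches in the RefSeq promoter windows of the 7 members with a window, drawn as boxes by their distance in bases from the annotated start site, with 1 line per window and colours for the CArG box, EGR site, GC box and TATA box. The CArG box appears in 4 of the 5 Egr2 windows, some of which overlap and share the same box. It appears in no other member, and the EGR site in Fosb and Fosl2.

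A value below is the log2 intensity of a probe minus the 75th percentile of its own array, so 0 is the level of that percentile. A log2 fold change is overexpression minus control, and a probe was called where limma gave an adjusted p under 0.05 over all probes tested. The 75th percentile of the intensity was 1617 to 1893 on the control arrays and 856 to 1268 on the overexpression arrays, so overall brightness went with the groups and cannot be told apart from them. Over all genes tested, the log2 fold changes had a median of 0.23 with this scaling and of 0.02 with quantile normalization, so each count is given under both. The arrays lay on 2 slides, slide 1 with 2 arrays of each group and slide 2 with 1 of each. The target of the lentivirus, Ppargc1a, was not a firm check of the labels, since neither of its probes exceeded background on every array of a group. One probe read -6.21, -6.37 and -7.71 in the control group and -5.70, -5.28 and -5.90 in the overexpression group, while the other overlapped between groups.

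Each of the 10 genes was represented by its brightest probe, the one with the highest mean over the 6 arrays. Of these genes Fosl2 and Egr1 were higher, and Fosb, Fosl1, Egr2 and Egr3 were lower. Fos, Jun, Junb and Jund did not pass. Thus 20% of the members were higher against 35.9% of all genes tested, and 40% were lower against 19.1%, shares of only 10 genes that were given no test. After quantile normalization the counts were again 2 higher and 4 lower, beside 22.4% and 21.7% of all genes. Counted by probe, 3 of 16 were higher and 7 lower, where 31.1% and 21.1% of all probes were, and under quantile normalization 2 were higher and 8 lower, beside 19.4% and 23.6%. Among the 14 probes with values on all 6 arrays, the groups did not overlap in 9, 2 higher and 7 lower, and this was so for 63% of all such probes. The 10 called probes had the same sign on slide 1 and on slide 2, and 9 of them were also called the same way after quantile normalization. Less RNA per cell and fewer cells that express a gene cannot be told apart in these bulk samples.

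**Figure D2:**
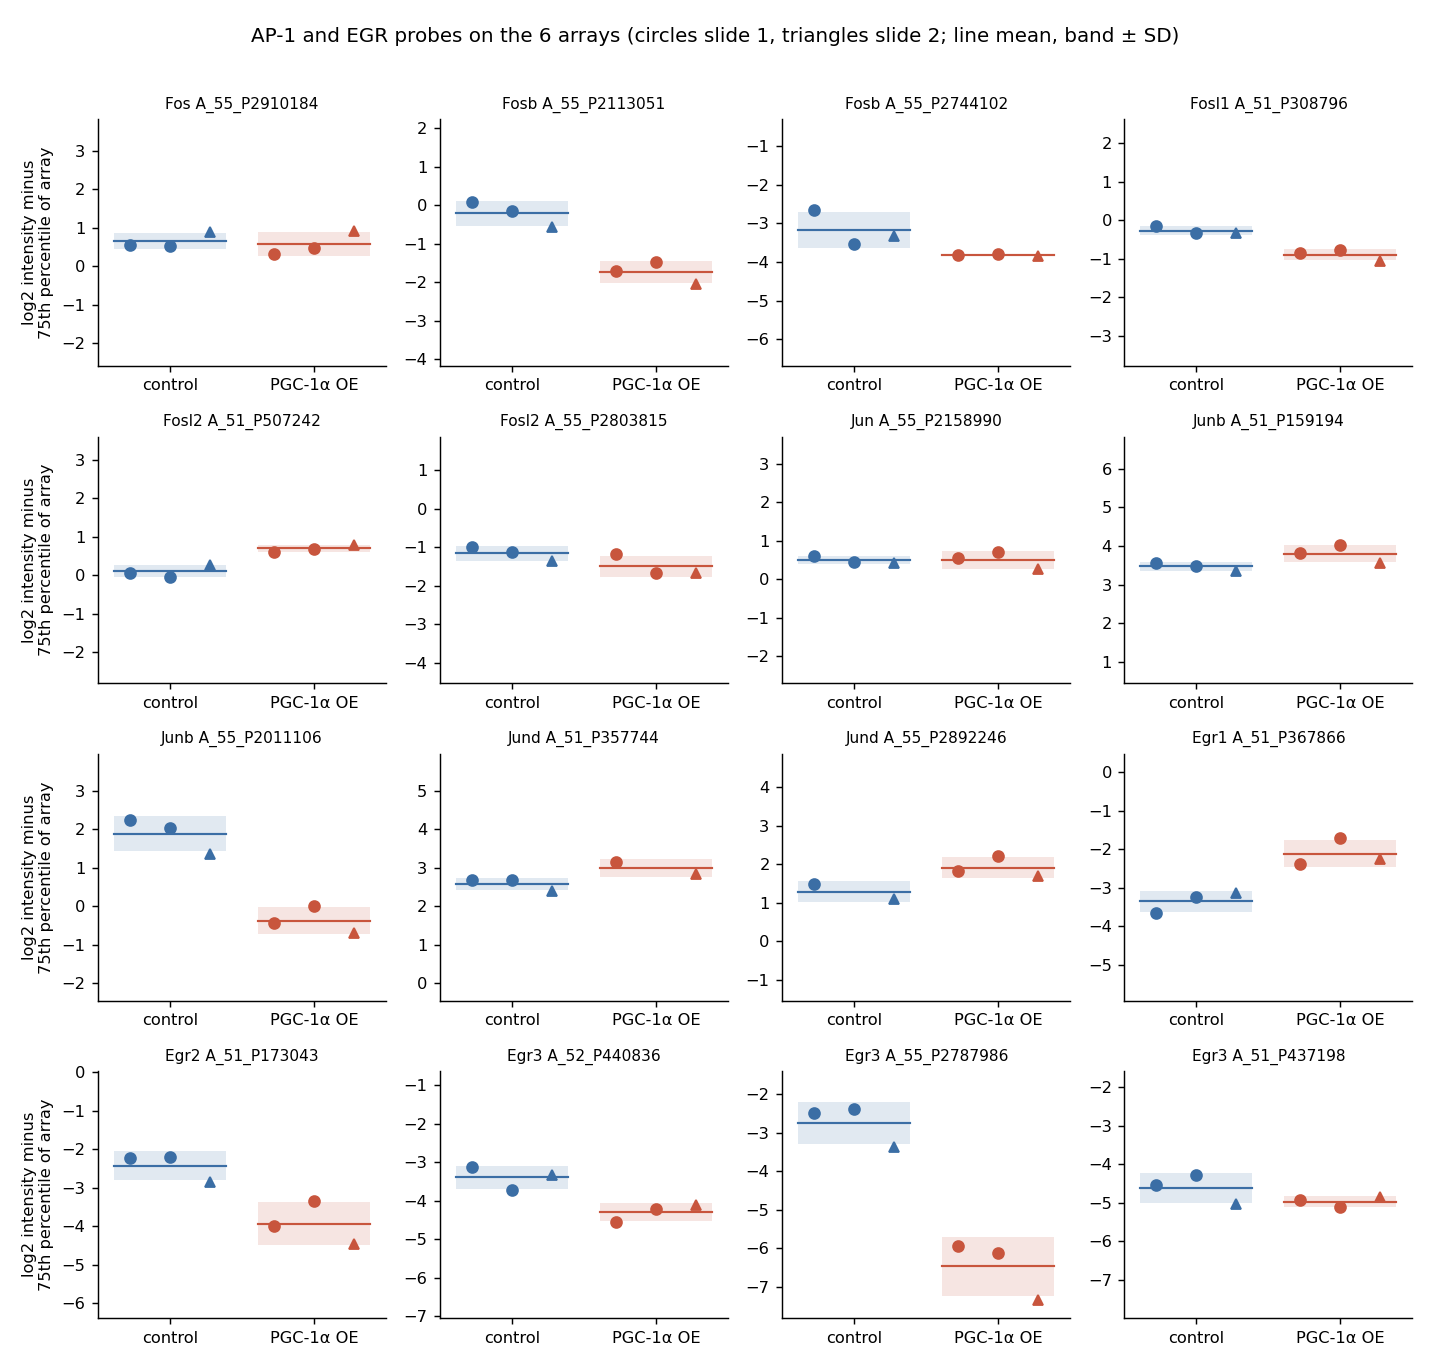
Log2 intensity minus the 75th percentile of the array for the 16 probes of the 10 members, 1 panel per probe with the same span on each vertical axis, and 1 point per array (blue control, red PGC-1α overexpression, circles slide 1, triangles slide 2, line the mean, band the SD). The red points lie clearly under the blue ones for the brighter Fosb probe, the dimmer Junb probe, Egr2 and the Egr3 probe A_55_P2787986, and above them for Egr1.

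Fosb, a Fos family member with a strong activation domain, had 2 probes, and both were lower with PGC-1α overexpression. The brighter probe, A_55_P2113051, read 0.08, -0.14 and -0.55 in the control group and -1.70, -1.47 and -2.04 in the overexpression group. Every overexpression array was below every control array by more than the spread within either group. The log2 fold change was -1.53 (standard error 0.21, adjusted p = 0.00101 from limma), a level 2.89-fold higher in the controls, and it was -1.55 within slide 1 and -1.49 within slide 2. The dimmer probe, A_55_P2744102, gave -2.66, -3.54 and -3.32 against -3.81, -3.80 and -3.84, with the 3 overexpression arrays nearly equal to each other. Its change of -0.65 (standard error 0.22, adjusted p = 0.036) was no longer called when any 1 array other than control replicate 2 was left out, with adjusted p up to 0.25 over all alternatives.

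Fosl1, which encodes FRA-1, lacks the activation domain of Fos and is a product of sustained MAP kinase signalling. Its probe, A_51_P308796, read -0.14, -0.33 and -0.33 in the control group and -0.84, -0.77 and -1.05 in the overexpression group. The groups did not overlap. Its log2 fold change was -0.62 (standard error 0.13, adjusted p = 0.0065), and it lay between -0.73 and -0.54 under all alternatives.

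Fosl2, which encodes FRA-2, the relative of Fosl1, went the other way by its brighter probe. This probe, A_51_P507242, gave 0.06, -0.03 and 0.27 on the control arrays and 0.61, 0.70 and 0.78 with overexpression. All overexpression arrays were above all control arrays. Here the log2 fold change was 0.60 (standard error 0.13, adjusted p = 0.0073). The second probe, A_55_P2803815, read -1.001, -1.12 and -1.37 against -1.18, -1.66 and -1.67, values that overlap. Its log2 fold change was -0.34 (standard error 0.18, adjusted p = 0.14), and the mean of both probes gave 0.13 (adjusted p = 0.35), so the rise of Fosl2 rests on 1 probe.

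Fos itself, the founding member of the family, did not pass the test. Its probe, A_55_P2910184, read 0.56, 0.51 and 0.88 in the control group and 0.32, 0.47 and 0.92 in the overexpression group. The groups overlap, and in both the array on slide 2 was the highest. A log2 fold change of -0.08 was found (95% interval -0.51 to 0.35, adjusted p = 0.73), an interval that leaves room for a change of moderate size in either direction.

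Jun, the partner of Fos in classical AP-1, did not pass either. Its probe, A_55_P2158990, gave 0.62, 0.46 and 0.44 without and 0.55, 0.71 and 0.26 with overexpression. The values overlap, and the 95% interval of the log2 fold change ran from -0.35 to 0.34 (adjusted p = 0.99).

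Junb, which often restrains Jun and is strongly induced in activated macrophages, had 2 probes that did not move together. The brighter probe, A_51_P159194, read 3.57, 3.49 and 3.35 in the control group and 3.81, 4.03 and 3.57 in the overexpression group. Here the groups overlap, with the lowest overexpression value at the highest control value. The log2 fold change was 0.33 (standard error 0.15, adjusted p = 0.097), it was -0.17 after quantile normalization (adjusted p = 0.33), and it passed with the slide as a block (adjusted p = 0.045), so it has no settled direction.
The dimmer probe, A_55_P2011106, fell on every overexpression array. It gave 2.24, 2.04 and 1.37 in the control group and -0.42, 0.0030 and -0.70 in the overexpression group. The log2 fold change was -2.26 (standard error 0.26, adjusted p = 5.25e-04), and it lay between -2.51 and -2.08 in every alternative that keeps the probes apart. The changes of the 2 Junb probes differed by 2.59 on the log2 scale, and the arrays of the groups did not overlap in the difference between the probes (exact permutation test, two-sided p = 0.1, the smallest that 3 against 3 arrays allow). Among 6042 genes with several tested probes, 0.993% had changes that far apart, and the median was 0.34. Both probes carry the same RefSeq accession, and their places in the transcript are not known here. Averaged, they gave -0.96 (adjusted p = 0.0091), so whether Junb counts as lower depends on how its probes are combined.

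Jund, the most constantly expressed Jun gene, had 2 probes with different RefSeq accessions, and each lacked the value of 1 array whose spot was marked as an outlier. The brighter probe, A_51_P357744, read 2.68, 2.67 and 2.41 in the controls and 3.15 and 2.83 on overexpression arrays 1 and 3. The other, A_55_P2892246, read 1.48 and 1.09 on control arrays 1 and 3 and 1.81, 2.21 and 1.69 with overexpression. Neither probe overlapped between groups. The log2 fold changes were 0.41 (standard error 0.17, adjusted p = 0.084) and 0.62 (standard error 0.21, adjusted p = 0.041). After quantile normalization they were 0.08 (adjusted p = 0.75) and 0.45 (adjusted p = 0.093), so under that scaling neither was called, while with the slide as a block both were (adjusted p = 0.022 each).

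Egr1, the most widely studied of the EGR factors and a typical immediate early gene, was the member with the largest rise. Its probe, A_51_P367866, gave -3.65, -3.25 and -3.13 in the control group and -2.37, -1.72 and -2.25 in the overexpression group. Each overexpression array was above each control array, on both slides. The log2 fold change was 1.23 (standard error 0.21, adjusted p = 0.0026), a 2.35-fold rise, and it stayed called in all 21 alternatives, with values from 0.83 to 1.41.

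Egr2, known for its role in macrophage and Schwann cell differentiation, fell while Egr1 rose. The probe A_51_P173043 read -2.22, -2.20 and -2.86 without and -3.99, -3.36 and -4.47 with overexpression. No array of one group reached into the other, and on each slide the drop was of similar size, -1.46 on slide 1 and -1.60 on slide 2. The log2 fold change was -1.51 (standard error 0.29, adjusted p = 0.0044), or 2.85-fold higher in the controls, and it was called in all 21 alternatives, from -1.80 to -0.90.

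Egr3, a close relative that NFAT induces in lymphocytes, had 3 probes that all had negative log2 fold changes but of very different size. The probe that stands for the gene, A_52_P440836, had the highest mean over the 6 arrays. In the controls alone A_55_P2787986 was brighter (mean -2.75 against -3.39), so the choice depends on how far that probe fell. A_52_P440836 read -3.13, -3.72 and -3.33 in the control group and -4.55, -4.22 and -4.12 in the overexpression group. The groups did not overlap, and the log2 fold change was -0.90 (standard error 0.19, adjusted p = 0.0058). With normexp background correction it was no longer called, at -0.50 or -0.19 according to the scaling.
The probe A_55_P2787986 was also lower. Its values were -2.48, -2.39 and -3.38 in the control group and -5.96, -6.12 and -7.36 in the overexpression group. It was well above background on all 3 control arrays but on only 1 of the 3 overexpression arrays, so the lower values lie close to background and the size of the drop is uncertain. This log2 fold change was -3.73 (standard error 0.40, adjusted p = 3.75e-04), and the alternatives that keep the probe gave -4.04 to -1.23, the smallest of them with normexp. The third probe, A_51_P437198, which carries another accession than the first pair, read -4.53, -4.27 and -5.03 against -4.92, -5.12 and -4.85. These values overlap, and the change of -0.35 (standard error 0.20, adjusted p = 0.17) was called after quantile normalization (-0.56, adjusted p = 0.042). For this probe the change was -0.62 on slide 1 but 0.18 on slide 2.

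**Figure D3:**
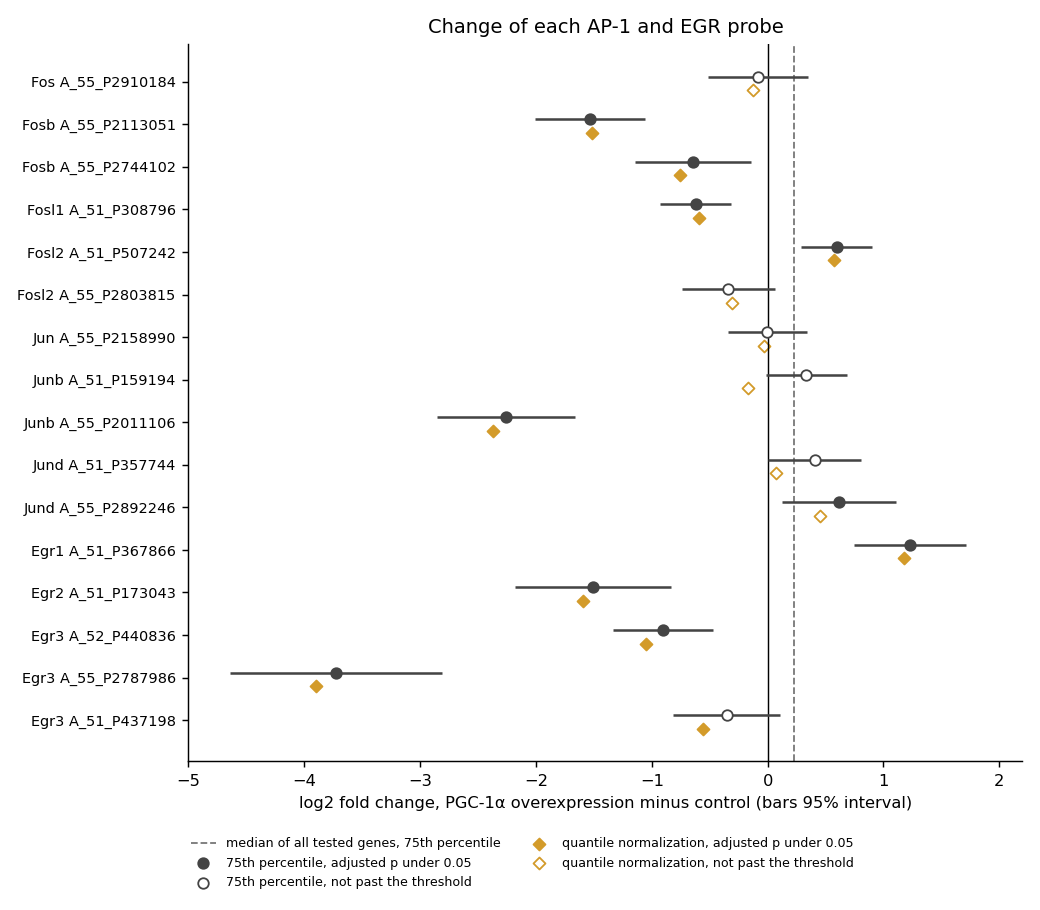
Log2 fold change (overexpression minus control) of the 16 member probes after scaling to the 75th percentile (circles, with 95% intervals) and after quantile normalization (diamonds), filled where the adjusted p is under 0.05, with the median of all tested genes, 0.23, as a dashed line. Egr1 lies at 1.23 and the Egr3 probe A_55_P2787986 at -3.73, and the 2 Junb probes lie on either side of 0.

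For Fosb the probes differed by 0.89 and for Fosl2 by 0.93 on the log2 scale, sizes that 18.6% and 17.2% of the genes with several probes reached. The probes of Jund differed by 0.21, less than the median of those genes. The Egr3 probes differed by up to 3.37, a size that only 0.199% of those genes reached. That range includes the probe whose overexpression values lie close to background.

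**Figure D4:**
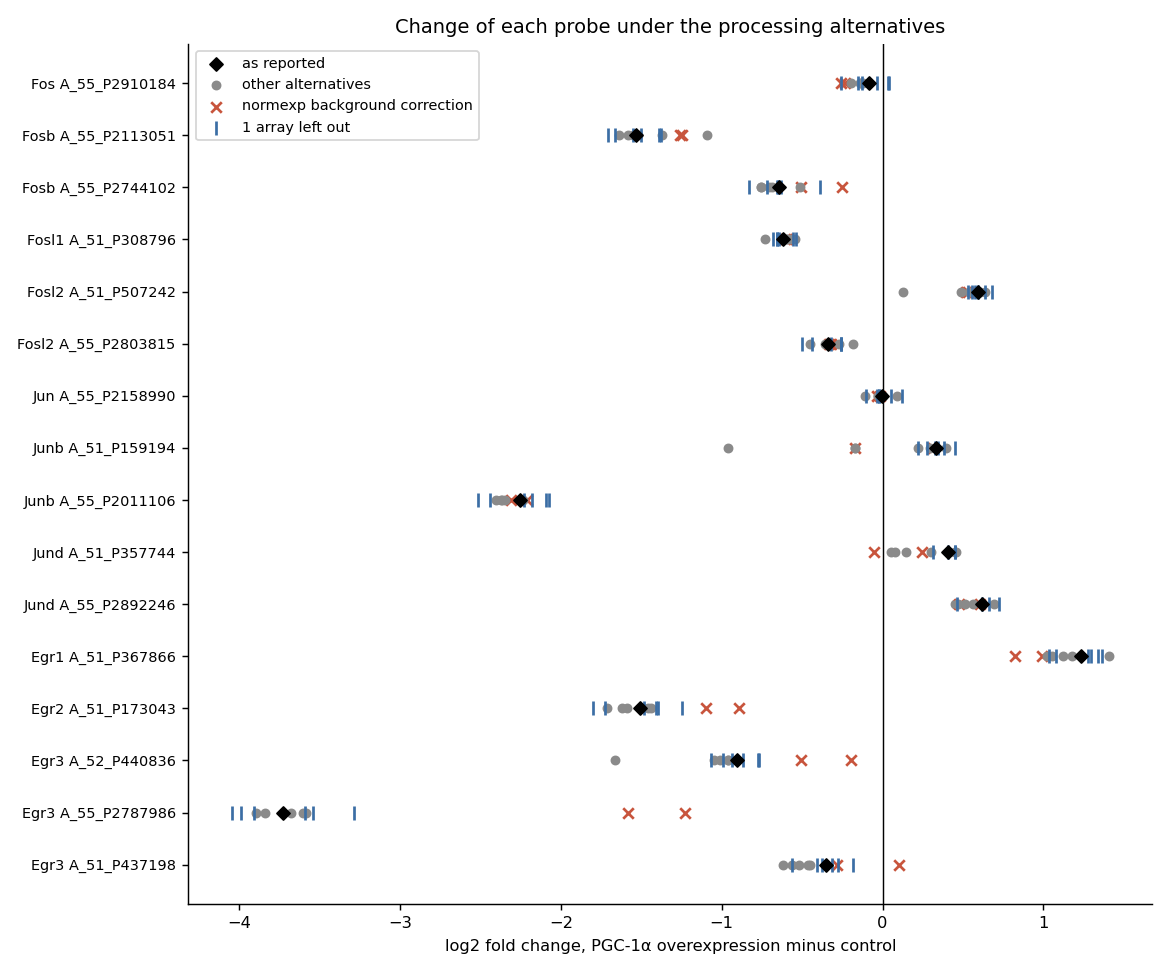
Log2 fold change of each member probe as reported (black diamonds) and under the processing alternatives, with 1 array left out (blue bars), with normexp background correction (red crosses) and with the other alternatives (grey). The points of Egr1, Egr2, Fosl1 and the brighter Fosb probe stay on 1 side of 0, whereas those of Fos, Jun and the brighter Junb probe lie on both sides.

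The genes whose values followed a member most closely were found by Pearson's correlation over the arrays, among 16226 genes, as a description over arrays of both groups. In each family the member whose brightest probe changed most was used. The larger falls of the dimmer Junb probe and the Egr3 probe A_55_P2787986 did not count here. For Fosb these were Gm16740 (r = 0.9997) and Soga1 (r = 0.999) over 6 arrays. With Jund over 5 arrays they were Hecw2 (r = 0.9997) and Faf1 (r = 0.9996), and with Egr2 they were Mab21l3 (r = 0.999) and Muc20 (r = 0.998). As many as 138, 125 and 37 genes exceeded an r of 0.99 with these 3 members, so the named genes are the first of many.

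Related genes were counted from lists written from textbook knowledge, each gene by its brightest tested probe, with genes named where they passed, changed by 1 or more on the log2 scale and did not overlap between groups. Of the other bZIP factors that pair with AP-1 proteins or resemble them, such as the ATF, BATF, MAF and CREB proteins, all 17 were tested, and 6 were higher and 3 lower. These shares, 35.3% and 17.6%, are near the 35.9% and 19.1% of all genes. The median of the list was 0.01, against 0.23 for all genes. Quantile normalization gave 4 higher and 4 lower, where 22.4% of all genes were higher and 21.7% lower. Cebpd, a C/EBP factor of the LPS response, fell by 1.85 (adjusted p = 6.89e-05). In the list of EGR relatives and corepressors the only gene tested was Nab2, a corepressor that EGR proteins themselves induce, named for that reason although its rise of 0.51 (adjusted p = 0.041) was below that size. Its other probe had a log2 fold change of -0.70, and the call was lost with the mean of the probes, without the filter, with the median of the array, with normexp and quantile normalization, on slide 1 alone, with the authors' values and when control replicate 2 or 3 or overexpression replicate 1 or 2 was left out.

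The list of SRF, its partners and their regulators had 5 lower and 2 higher among 9 tested genes and a median of -0.57. It holds the antagonists Hdac4, Hdac5 and Fhl2 beside factors that act at immediate early promoters, not all of them only as activators. Hdac4 (-0.69) was one of the 5 lower genes. Under quantile scaling 5 were again lower, whereas the rises of the ternary complex factors Elk1 and Elk4, named after their values were seen, were no longer called (-0.011, adjusted p = 0.95, and 0.37, adjusted p = 0.064). The probes of Elk4 ran from -0.79 to 0.47 and those of Elk1 from 0.09 to 0.61, so the rise of Elk4 rests on its brighter probe. Mrtfa, the actin-regulated coactivator of SRF, read 1.31, 1.04 and 1.22 in the control group and -0.44, -0.41 and -0.10 in the overexpression group, so that it changed by -1.51 on the log2 scale (standard error 0.15, adjusted p = 2.45e-04). Elk3, a ternary complex factor, fell by 1.04 (adjusted p = 6.70e-04). The 5 lower genes make 55.6% of those tested, where 19.1% of all genes were lower. The 2 higher genes make 22.2%, where 35.9% of all genes were higher. After quantile normalization 21.7% of all genes were lower and 22.4% higher.

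Of the 33 genes of the MAP kinase cascade, 5 were higher and 4 lower, and quantile normalization gave 3 higher and 8 lower. These are 15.2% and 12.1% of the list, where 35.9% and 19.1% of all genes passed, and 22.4% and 21.7% with quantile normalization. Of the 4 lower genes, Map3k5, or ASK1, had a log2 fold change of -1.79, Map3k8, or TPL2, the kinase that links LPS to ERK, of -1.33, and Map3k1, or MEKK1, of -1.29 (adjusted p = 1.57e-04, 6.23e-04 and 3.65e-04), and Mapk12, or p38γ, named after its values were seen, of -1.14 (adjusted p = 0.00111). The median over the list was 0.04.

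Of 26 other immediate early and primary response genes tested, 11 were lower, 42.3% against 19.1% of all genes. The 3 that were higher make 11.5% against 35.9% of all genes. The list had a median of -0.37 and, after quantile normalization, 12 genes lower and 4 higher. Under that scaling 21.7% of all genes were lower and 22.4% higher. Klf2, a factor that restrains myeloid activation, read 0.45, 0.38 and 0.37 in the control group and -1.76, -1.85 and -1.78 in the overexpression group, a change of -2.20 on the log2 scale (adjusted p = 2.77e-05). Ier2 fell by 2.17 (adjusted p = 2.56e-04) and Arc, best known from neurons, by 2.03 (adjusted p = 5.13e-04). Ccn2, a matricellular protein gene, rose by 1.52 (adjusted p = 0.00134), with 2 of the 3 control arrays well above background.

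Of 23 tested genes that textbooks list as targets of AP-1 or EGR, 8 were higher and 5 lower, with a median of 0.29. The shares of 34.8% and 21.7% lie close to those of all genes, 35.9% and 19.1%. Quantile normalization gave 3 higher and 7 lower, where 22.4% of all genes were higher and 21.7% lower. There the list held a smaller share of higher genes and a larger share of lower ones than all genes. Ptgs2, the inducible cyclooxygenase, rose by 1.69 (standard error 0.30, adjusted p = 0.00402) with 1 overexpression array missing. For Vegfa, an angiogenic growth factor, the rise of 1.10 came from the brightest of 4 probes, whose log2 fold changes ran from -0.60 to 1.10. Ccl2, which attracts monocytes, fell by 2.61, Tnf, the inflammatory cytokine, by 1.75 and Trib1, a pseudokinase, by 1.29 (adjusted p = 2.42e-05, 2.84e-04 and 0.00185).

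Among 14 factors that act on AP-1 and EGR proteins, 4 were higher and 3 lower. These are 28.6% and 21.4%, beside 35.9% and 19.1% of all genes. Quantile normalization gave 3 of each, beside 22.4% and 21.7% of all genes. Nfatc2, which binds DNA together with AP-1, had a log2 fold change of 1.39 by its brighter probe but -1.92 by the other. Trib2 rose by 1.12 (adjusted p = 0.00437), with 2 of 3 control arrays well above background. Fbxw7, the ubiquitin ligase subunit that marks Jun proteins for degradation, fell by 2.24 (adjusted p = 5.25e-05), and its probes ran from -2.24 to -0.82.

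**Figure D5:**
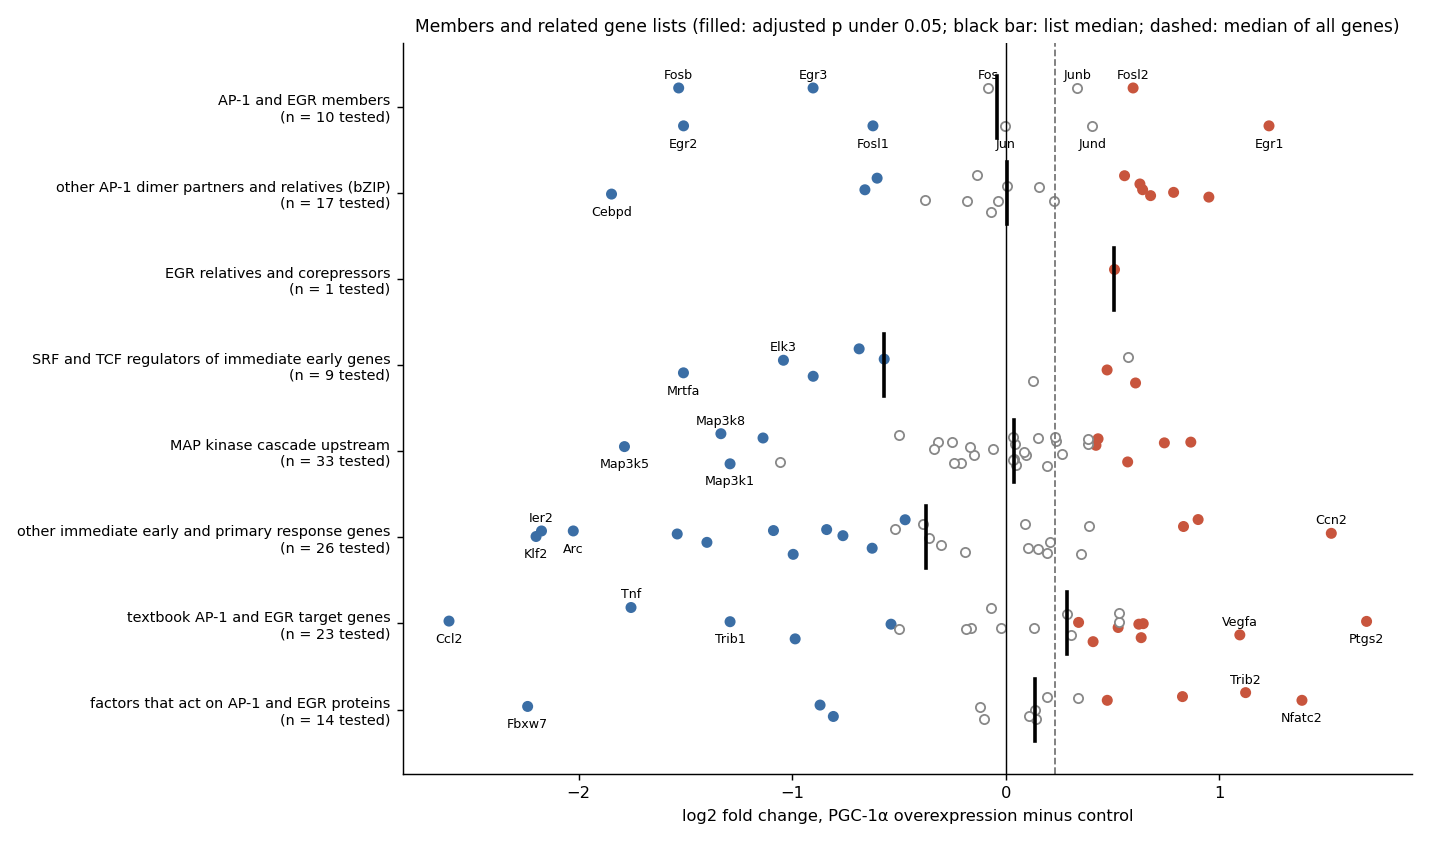
Log2 fold change (overexpression minus control) of the 10 members and of the genes of 7 related lists, each gene by its brightest tested probe, filled where the adjusted p is under 0.05 (red higher, blue lower), with the median of each list as a black bar and the median of all genes, 0.23, as a dashed line. The list of other immediate early genes has its median at -0.37 and the SRF list at -0.57, to the left of the dashed line.

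The labelled cell type was checked with marker genes. Of 14 microglia and macrophage markers 12 were tested, and Cx3cr1 and P2ry12, which define resting microglia, did not meet the filter on background. Of those tested, 6 were higher, 50% against 35.9% of all genes, and quantile normalization no longer called them. Tmem119 was lower, at -2.68 on the log2 scale, which makes 8.33% against 19.1% of all genes. After quantile normalization Adgre1 was lower as well, at -0.47 (adjusted p = 0.017). The summed linear level relative to the 75th percentile was 101 to 107 on the control arrays and 144 to 169 on the overexpression arrays. The sums were also higher for markers of neurons (24.2 to 29.7 against 36.5 to 49.8), astrocytes (0.241 to 0.278 against 0.408 to 0.520), oligodendrocytes (1.02 to 1.14 against 1.16 to 1.30), endothelial cells (0.0529 to 0.0691 against 0.0710 to 0.0932) and fibroblasts (15.4 to 16.5 against 26.5 to 32.0). These sums weigh the brightest marker of a list most, and they were taken with the 75th percentile scaling only. Itgam, Snap25 and Col1a1 were the brightest microglia, neuron and fibroblast markers. Their log2 fold changes of 0.75, 0.71 and 0.77 became 0.11, 0.08 and 0.22 after quantile normalization, and none was called there. The brightest astrocyte marker, Aqp4, was still called, at 0.85. Of the single markers of other cell types, Tubb3 (-0.63), Pecam1 (-0.43) and Pdgfra (-1.63) were called lower. The 3 probes of Pdgfra ran from -1.63 to 1.13. After quantile normalization the astrocyte list kept 2 higher calls, the fibroblast list 2 of 3 and the neuron list 1 of 2. The oligodendrocyte and endothelial lists each kept their 1 higher call. The part of other cell types in the changes of the AP-1 and EGR genes was not tested.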

How the data were processed

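RNA of LPS-treated BV2 cells was measured on 6 Agilent 1-colour arrays, 3 per group, grouped by their labels. The authors' Agilent Feature Extraction 11.5.1.1 gave a background-subtracted intensity per spot, deposited as it left the scanner software. A table of normalized log2 values, also deposited by the authors and made in GeneSpring by a procedure not given in the sources used here, served as an alternative. Their column medians were 8.29, and each followed its own array (r of 0.999 or more across probes, rounded).

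From 59305 spots other than controls per array, log2 of the intensity was taken, the 75th percentile of the array subtracted, spots marked as outliers left out and repeated spots averaged. Probes were named through their accession in RefSeq. Matched probes with values on at least 2 arrays per group, and well above background on all 3 arrays of a group, entered 1 fit of limma 3.58.1 (lmFit, eBayes) under R 4.3.3, with Benjamini-Hochberg adjustment over 24823 probes and a threshold of 0.05. The steps were tested on simulated data. Alternatives were other scaling, background correction (normexp, offset 50), filters, probe rules, blocks, variance models and the leaving out of arrays. Every member probe is reported. From each list, up to 3 genes per direction are named by size, and the 2 genes most like a member by correlation. The members and lists were chosen with earlier results of these data known. Coordinates are given for the promoter windows only, since the assembly of the array design differs from that of RefSeq. Motifs were searched and plots drawn with Python 3.11.15, numpy 2.4.6, pandas 2.3.3 and matplotlib 3.10.9. The number of arrays limits the precision.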

Additional observations from a re-analysis of the deposited data

How the results depend on the processing

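The calls of Egr1, Egr2, Fosl1 and the brighter Fosb probe held in all 21 alternatives. Those of the dimmer Junb probe and the Egr3 probe A_55_P2787986 held in every alternative that tests them. The filter that asks for all 6 arrays well above background left this Egr3 probe out, since only 1 of its overexpression arrays was. Directions turned only for probes that were not called. The brighter Junb probe was -0.17 after quantile normalization, -0.17 with normexp and quantile normalization, -0.17 with the authors' values and -0.96 as the mean of its probes. The Egr3 probe A_51_P437198 was 0.10 with normexp and the 75th percentile, and the brighter Jund probe -0.054 with normexp and quantile normalization. Jun was 0.088 on slide 1 alone, 0.0046 with array weights, 0.05 without control replicate 1 and 0.12 without overexpression replicate 3. Fos was 0.03 without control replicate 3 and 0.043 without overexpression replicate 1. With 1 array left out, Jun ran from -0.10 to 0.12 and Fos from -0.26 to 0.043.

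Higher member genes numbered 1 with the mean of the probes, 4 with the slide as a block, 4 with a variance trend and robust estimation, 4 with array weights, and 2 to 4 when 1 array was left out, the 4 without overexpression replicate 3. Higher member probes numbered 5 with the slide as a block, 5 with the variance trend and 5 with array weights, and 2 to 4 with 1 array left out. The 4 lower member genes became 3 with normexp under either scaling and 5 with the mean of the probes. The 7 lower member probes became 5 with normexp under either scaling and 6 under either other filter. They became 8 with quantile normalization, array weights or the authors' values, and 6 to 7 with 1 array left out. The 29 higher genes of the lists became 18 with quantile normalization, 17 with normexp and quantile normalization, 19 with the mean of the probes, 15 with the authors' values and 19 to 25 with 1 array left out, the 19 without control replicate 2 or overexpression replicate 1. Of all called genes 65.3% were higher, but 50.7% with quantile normalization, 45.7% with normexp and quantile normalization, 55.9% with the median of the array and 50.7% with the authors' values. The cause was not tested.

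Arrays of replicates 1 and 2 did not deviate together across the groups (r = -0.20 and 0.02 over probes). Those of replicate 3, the only arrays on slide 2, did (r = 0.60), and so did control replicate 1 with overexpression replicate 2 (r = 0.53). Since slide goes with replicate number, these values cannot decide whether the numbers pair the arrays. With the replicate block 2 member genes were higher and 4 lower, as without it, 2 member probes were higher and 7 lower, and 10192 genes passed in all against 9437. The dimmer Jund probe lost its call there.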
